A study of Mus musculus with 4 samples.

Results

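Malat1, Neat1, Gas5 and Snhg1 are long noncoding RNAs, and their probe sets were taken from 4 arrays of mouse lung at E18.5 by the gene symbols that the platform annotation gives. They are 4 of 18193 genes that the arrays read with probe sets assigned to a single gene. They were read by 18 such probe sets, 15 on the Affymetrix design MOE430A and 3 on MOE430B, and a further probe set on MOE430A is assigned to Gas5 and Snord47 together. The genes were chosen with earlier values of this same comparison in view, so the values below describe these arrays and carry no test.

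The study asked what skeletal muscle contributes to lung development. Total RNA (6 µg) came from E18.5 fetal lungs, shortly before birth. One genotype is given in the labels as Myf5-/-:MyoD-/- (DKO), a double null for a pair of myogenic transcription factors without which skeletal muscle does not form, on BALB/c. The other is wild type (WT) BALB/c. Each genotype was hybridised once to each design, so there is 1 array per genotype and design, no replicate and no p-value, and the number of arrays limits the precision of every value. The labels do not state the embryos' sex, whether RNA was pooled, or whether both arrays of a genotype shared an RNA sample.

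The targeted genes alone do not check the labels. Myf5 read 8.94 in the array labelled DKO and 110.5 in the array labelled WT, both under the floor for dim signals of 284.5, so it gave no fold. Myod1 on MOE430A went against the labels, with 1081 in the array labelled DKO and 85.0 in the array labelled WT, at least 3.80-fold higher. Its probe set on MOE430B read 607.2 and 337.2 in the arrays labelled DKO and WT. The sources used here do not place either gene's probes with respect to the deletions, and probes outside a deletion check nothing. Of 6 skeletal muscle marker genes, 2 passed the filter on signal described below, on MOE430A. Mylpf, a fast myosin light chain, read 220.7 in the array labelled DKO and 916.9 in the array labelled WT, at least 3.22-fold lower, and passed only through the array labelled WT. Ckm, muscle creatine kinase, which heart also makes, read 42727 in the array labelled DKO and 35417 in the array labelled WT. Myh3, the embryonic myosin heavy chain, was below the filter, with 32.5 in the array labelled DKO and 292.3 in the array labelled WT. The second value is just above the floor, so the log2 ratio was only -0.04. Also below the filter, Myog read 360.3 and 369.5 in the arrays labelled DKO and WT. Tnnt3 read 305.7 and 355.2, and Myh8 297.8 and 372.0, in the same order. Every direction below rests on the labels. Markers of fetal lung were strong in both arrays, with Sftpc, a surfactant protein of type II cells, at 113337 in the array labelled DKO and 78525 in the array labelled WT.

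Malat1 is a long nuclear RNA that collects in nuclear speckles, the bodies where splicing factors are stored. Its 3' end is cut by RNase P rather than by the usual polyadenylation machinery and is protected by a triple helix. Neat1 lies beside Malat1 on chromosome 19 and is the scaffold of paraspeckles, bodies that hold RNA-binding proteins in the nucleus. Gas5, on chromosome 1, and Snhg1, on chromosome 19, host small nucleolar RNAs in their introns. The snoRNAs guide ribosomal RNA modification, while the spliced host RNAs are exported and degraded by nonsense-mediated decay. Gas5 is named for its accumulation in growth-arrested cells, and its RNA starts with the pyrimidine tract that marks transcripts of the translation machinery.

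The start sites are shown so that the snoRNA hosts and Malat1 can be compared in sequence. RefSeq promoter windows on GRCm38.p6 were found for Malat1, Snhg1 and both annotated starts of Gas5, 3 of the 4 genes. Each line runs 5′ to 3′ on the transcribed strand, from 50 bases before the annotated first base to 30 bases from it onward. Capitals mark TATA (the same on both strands) between 40 and 21 bases before the start, or a tract of a C followed by at least 4 bases that are each C or T, searched on the transcribed strand within 5 bases of the start.
Malat1, chr19:5802643-5802722, minus strand: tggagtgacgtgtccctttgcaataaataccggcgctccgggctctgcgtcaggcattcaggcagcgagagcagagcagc
Snhg1, chr19:8723437-8723516, plus strand: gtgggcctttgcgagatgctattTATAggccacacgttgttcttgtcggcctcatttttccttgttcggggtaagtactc
Gas5 upstream start, chr1:161034551-161034630, plus strand: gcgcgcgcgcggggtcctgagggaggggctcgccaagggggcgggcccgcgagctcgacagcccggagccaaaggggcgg
Gas5 downstream start, chr1:161035116-161035195, plus strand: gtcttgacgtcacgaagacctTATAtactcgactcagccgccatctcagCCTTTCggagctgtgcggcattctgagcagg

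The downstream start of Gas5 held both features. Its tract began 1 base before the annotated first base, and a match also began at that base itself. A tract at exactly that base occurred in 2.51% of 32851 mouse promoter windows, and one starting within 5 bases of it in 18.3%. TATA occurred in 5.34% of windows. The Snhg1 window held TATA but no tract as defined. The Malat1 window and the upstream Gas5 window held neither. These matches describe letters only, and no array measured which start was used.

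The signals below are MAS5 values on a linear scale, with the array labelled DKO rescaled so that the median ratio was 1. A probe set passed when its higher signal was at or above the median signal, which was 789.2 on MOE430A and 858.2 on MOE430B. A passing probe set is called bright when the mean of its log2 signals reached the 75th percentile of all signals, 1832 and 1986. Ratios compare genotypes within a probe set, and signals of different probe sets are not levels on 1 scale. No replicate error exists, and an SD of 0.24 per log2 ratio, estimated from 100 probe sets that both designs carry, is given in its place. It describes those probe sets only. It may include a difference between RNA samples, since the labels do not state whether both designs shared one. It does not measure the spread between embryos, and dim probe sets may vary more. Over all passing probe sets the log2 ratios had an SD of 0.47 on MOE430A and 0.82 on MOE430B, and over bright ones 0.34 and 0.43. Of the 18 single-gene probe sets of the 4 genes, 13 passed, and 7 of these were bright.

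Malat1 was higher in the arrays labelled DKO by all 6 of its passing probe sets, on both designs. The filter takes the higher signal, and 3 of the 6 (1418188_a_at, 1452378_at and 1436202_at) passed only through the array labelled DKO, so they had to read higher there. The other 3 reached the filter in both arrays. The probe set 1438403_s_at had the largest difference, reading 9348 in the array labelled DKO and 810.2 in the array labelled WT. This was 11.5-fold higher, a log2 ratio of 3.53. None of the 5605 bright probe sets on MOE430A had a higher ratio, a place that the choice of Malat1 from this contrast helped to set. Outside the bright set, a passing probe set of Gpaa1 had a higher ratio, 3.98. It read 6955 in the array labelled DKO and 440.4 in the array labelled WT. Probe set 1418188_a_at read 1257 in the array labelled DKO and 356.1 in the array labelled WT, 3.53-fold higher. Probe set 1418189_s_at read 2580 in the array labelled DKO and 949.4 in the array labelled WT, 2.72-fold higher. The smallest difference of a passing probe set on this design was that of 1452378_at, with 951.5 in the array labelled DKO and 535.8 in the array labelled WT, 1.78-fold higher. These 4 probe sets share a direction but differ in size, from 0.83 to 3.53 on the log2 scale.

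On MOE430B, Malat1 was read by a pair of probe sets, both higher in the array labelled DKO. Probe set 1436202_at read 2057 in the array labelled DKO and 543.0 in the array labelled WT, 3.79-fold higher. Probe set 1429060_at read 5280 in the array labelled DKO and 3273 in the array labelled WT, 1.61-fold higher. The remaining Malat1 probe set, 1427285_s_at on MOE430A, was below the filter and read the other way, with 345.5 in the array labelled DKO and 429.7 in the array labelled WT. The suffix _s_at marks probes shared by more than one transcript. The sources used here do not place the probe sets along the Malat1 transcript.

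**Figure D1:**
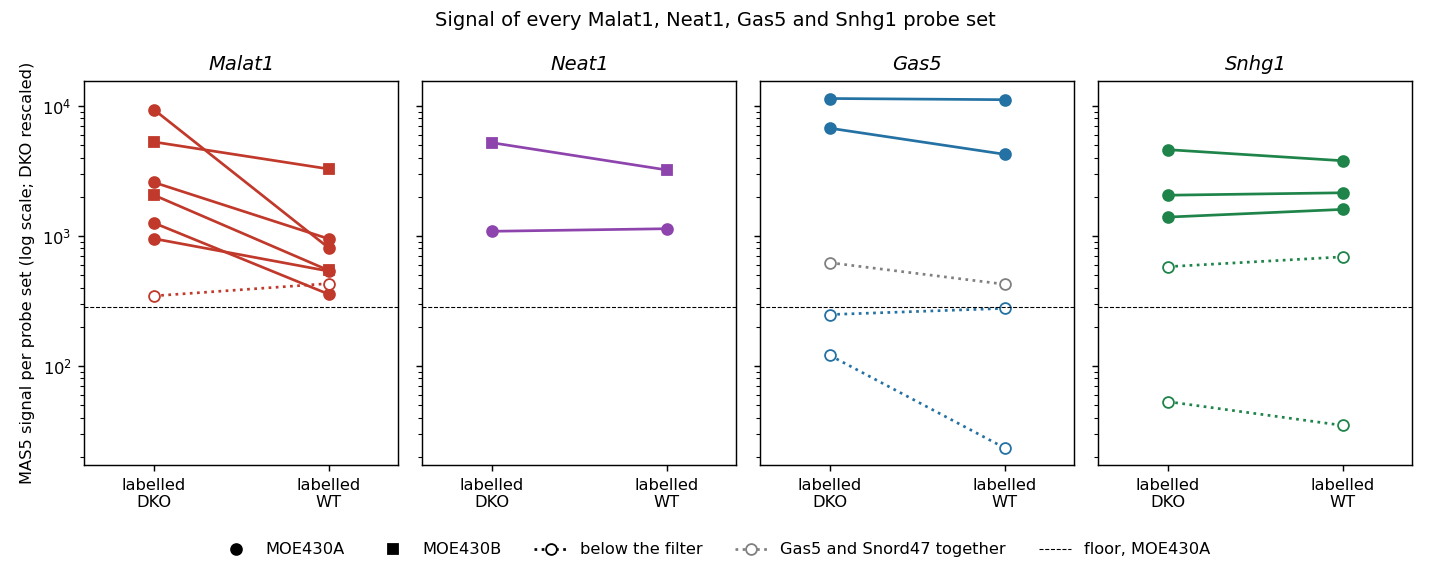
MAS5 signal (log axis) of every probe set of Malat1, Neat1, Gas5 and Snhg1 in the arrays labelled DKO and WT, one line per probe set, with circles for MOE430A, squares for MOE430B, open symbols for probe sets below the filter and the MOE430A floor as a dashed line. All 6 passing Malat1 lines are higher at DKO, the steepest with 9348 at DKO against 810.2 at WT, while the passing Snhg1 lines are nearly level.

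Past 2-fold higher were 4 of the 6 passing Malat1 probe sets, 3 on MOE430A and 1 on MOE430B. Of all passing probe sets, 1.81% reached this on MOE430A and 9.74% on MOE430B. On MOE430B, 301 of 12891 passing probe sets (2.33%) had a higher ratio than 1436202_at. Of bright probe sets the shares were 0.464% and 1.45%. Past 1.5-fold higher were all 6, against 6.41% of passing probe sets on MOE430A and 18.7% on MOE430B. Since the genes were picked from this contrast, nothing is read from the excess.

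Few genes are read by as many probe sets, which allows a description of how far the probe sets of a gene go together. On MOE430A, 223 genes had at least 4 passing probe sets. Malat1 had the highest median of them, 1.63 on the log2 scale, a place that its choice from this contrast and the filter helped to set. Next came Meg3, another long noncoding RNA, of the imprinted Dlk1-Dio3 region, with a median of 0.81 over 5 probe sets. Malat1 also had the widest range, 2.70 log2 units from its lowest to its highest probe set, against a median range of 0.72 for these genes. On MOE430B, 14 of 1837 genes with at least 2 passing probe sets had a higher median than the 1.31 of Malat1.

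**Figure D2:**
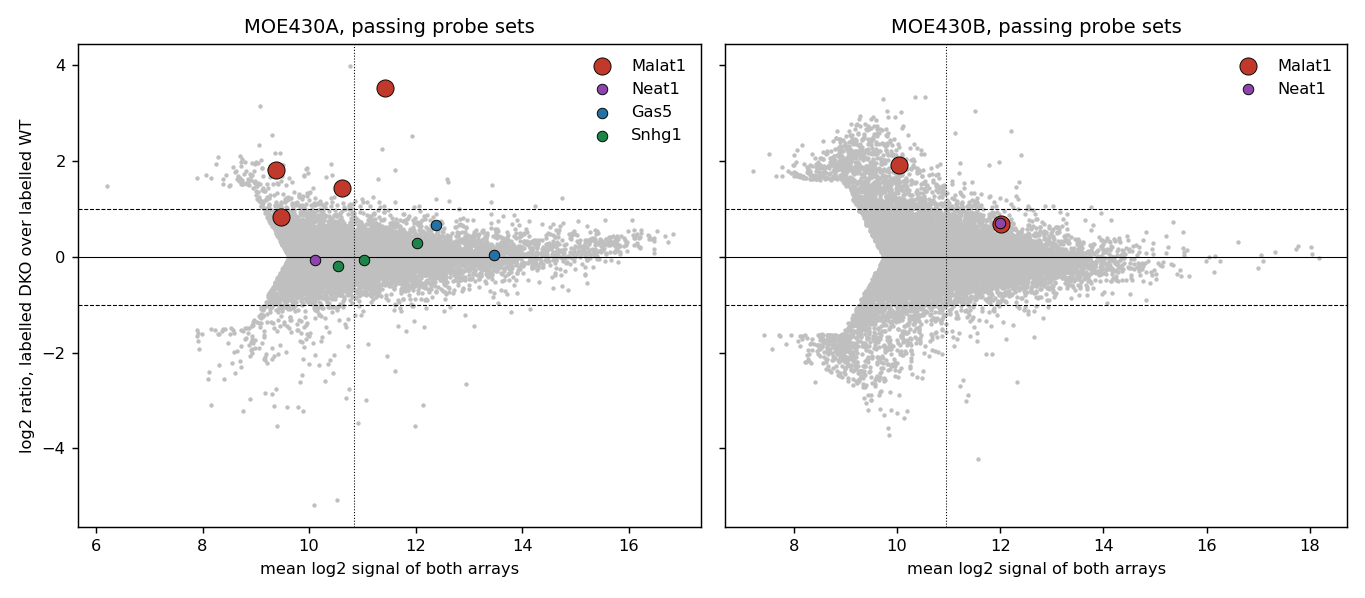
Log2 ratio of the array labelled DKO over the array labelled WT against the mean log2 signal, one grey point per passing probe set, for both designs, with the 4 genes in colour, dashed lines at 2-fold and a dotted line at the bright threshold. The Malat1 points are above 0 in both panels, up to 3.53 on MOE430A, the other genes reach at most 0.69, and on MOE430B the Neat1 point (0.69) covers the Malat1 point of 1429060_at (0.69).

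Neat1 gave a different value on each design. Probe set 1428083_at on MOE430A read 1085 in the array labelled DKO and 1135 in the array labelled WT. Its log2 ratio was -0.07, smaller than the SD of 0.24 from shared probe sets. Probe set 1442881_at on MOE430B read 5206 in the array labelled DKO and 3217 in the array labelled WT, 1.62-fold higher, where 6.68% of bright probe sets were at least 1.5-fold higher. These probe sets do not settle a direction for Neat1. RefSeq lists 2 Neat1 transcripts, and the sources used here do not say which of them each probe set reads. Beside it, the bright Malat1 probe set of MOE430B had nearly the same ratio, 0.69 on the log2 scale for both.

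Gas5 was nearly level by its brightest probe set and higher by another. Probe set 1449410_a_at read 11399 in the array labelled DKO and 11164 in the array labelled WT, a log2 ratio of 0.03, whose sign turned to -0.02 when a loess curve was removed. Probe set 1419291_x_at read 6733 in the array labelled DKO and 4244 in the array labelled WT, 1.59-fold higher, and 3.35% of bright probe sets on MOE430A were at least 1.5-fold higher. The suffix _x_at marks probes that may bind other transcripts. The probe set assigned to Gas5 and Snord47 read 621.3 in the array labelled DKO and 424.6 in the array labelled WT, below the filter, and cannot be given to either gene. The remaining pair of Gas5 probe sets read 248.3 and 120.2 in the array labelled DKO, and 276.9 and 23.4 in the array labelled WT, under the floor throughout.

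Snhg1 differed little between the arrays. Probe set 1433674_a_at read 4605 in the array labelled DKO and 3786 in the array labelled WT, 1.22-fold higher. Probe set 1439399_a_at read 2055 in the array labelled DKO and 2146 in the array labelled WT, a log2 ratio of -0.06. Probe set 1433675_at read 1395 in the array labelled DKO and 1599 in the array labelled WT, a log2 ratio of -0.20. The passing probe sets thus spanned 0 from -0.20 to 0.28, and none reached 1.5-fold. Most passing probe sets on MOE430A did not reach it either, since 6.41% were at least that much higher and 7.28% lower. Of those below the filter, 1454703_x_at read 579.8 in the array labelled DKO and 689.4 in the array labelled WT, and 1437658_a_at read 53.0 and 34.8 in the arrays labelled DKO and WT.

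Choice of processing mattered for the dim probe sets of Malat1 and for the sign of the small ratios. Over the alternatives fixed at the start, the log2 ratio of 1438403_s_at lay between 3.51 and 3.55 and that of 1418189_s_at between 1.43 and 1.46. Raising the floor to the median of the design lowered 1418188_a_at to 0.67, since its signal in the array labelled WT is then replaced by the floor. Rescaling on the hybridisation spike-ins moved the median of all passing probe sets to -0.56 on MOE430A and -0.38 on MOE430B. On that scale every passing Malat1 probe set was still above 0, while 1449410_a_at of Gas5 was at -0.53 and 1433674_a_at of Snhg1 at -0.27, close to or above the shifted median.

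**Figure D3:**
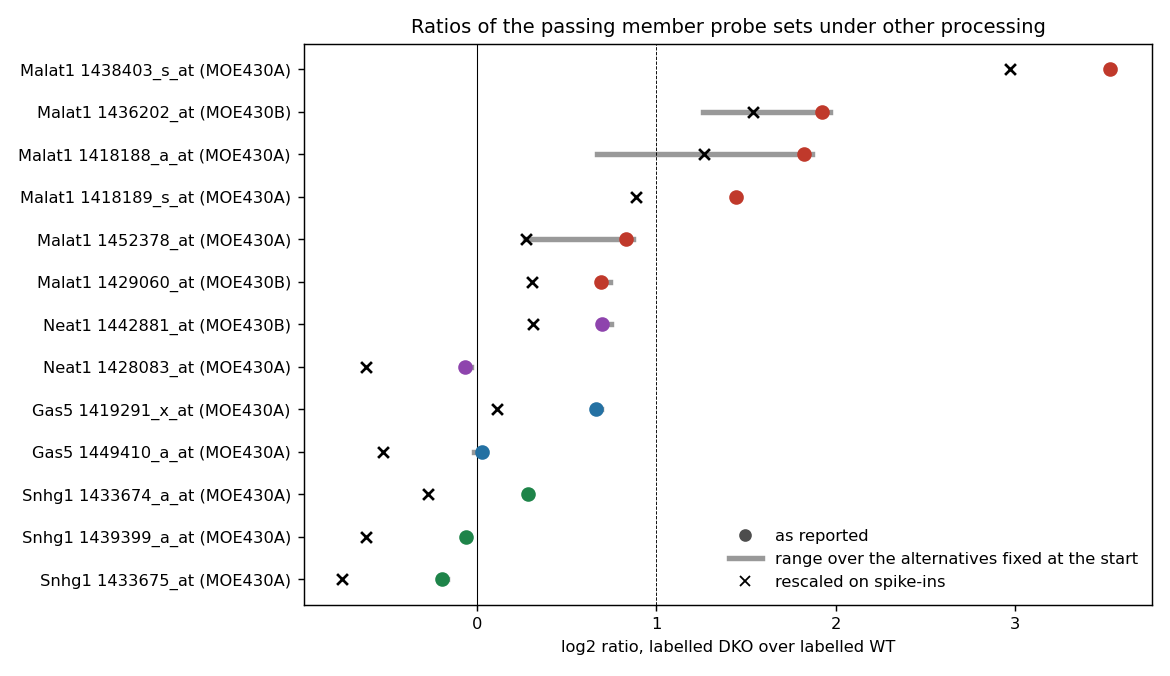
Log2 ratio (array labelled DKO over array labelled WT) of each passing probe set as reported (coloured point), its range over the alternatives fixed at the start (grey bar) and its value after rescaling on spike-ins (cross). All Malat1 values stay above 0, from 0.27 to 3.55, whereas Gas5 1449410_a_at and Snhg1 1433674_a_at lie on both sides of 0.

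The array controls for 18S ribosomal RNA also read higher in the arrays labelled DKO, and their part in the Malat1 values was not tested. The 3 probe sets on MOE430A read 6410 to 24763 in the array labelled DKO and 1536 to 8208 in the array labelled WT, with a median ratio of 3.91. On MOE430B the median ratio was 3.13. The ratio of 3' to 5' signal of Gapdh, a measure of RNA integrity, was 0.845 in the array labelled DKO and 0.788 in the array labelled WT on MOE430A, and that of b-actin was 1.03 and 1.01 in the arrays labelled DKO and WT. The hybridisation spike-ins had a median ratio of 1.47 on MOE430A and 1.303 on MOE430B, arrays labelled DKO over those labelled WT. The poly-A spike-ins had smaller median ratios, 1.18 on MOE430A and 1.05 on MOE430B, and no rescaling was made on them.

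Markers of several cell types also differed, and in whole lung, more cells of a type and more RNA per cell cannot be told apart. All 12 passing probe sets of lymphocyte markers on MOE430A were lower in the array labelled DKO, 10 of them at least 2-fold, where 2.03% of passing probe sets were that much lower. Since 11 of the 12 passed only through the array labelled WT, this count describes their signals and is set by the filter. The summed signal of the 12 was 6808 in the array labelled DKO and 31975 in the array labelled WT. This sum carries the same selection and adds signals that are not on 1 scale. The 1 probe set that reached the filter in both arrays, of Zap70, differed little. It read 3272 in the array labelled DKO and 3684 in the array labelled WT, a log2 ratio of -0.17. On MOE430B, 4 probe sets reached the filter in both arrays, and all 4 were lower, with a median of -0.66. Of these, 1 was past 2-fold, where 7.97% of passing probe sets were that much lower. Probe sets of DNA replication genes had a median log2 ratio of -0.60 on MOE430A, with 22 of 25 lower, 9 of the 25 having passed only through the array labelled WT. Of the 15 that reached the filter in both arrays, 13 were lower, with a median of -0.62. Lung mesenchyme markers (Tbx4, Tbx5, Tcf21 and Foxf1) were higher by all 5 passing probe sets on MOE430A, with a median of 0.61, and by 2 of 3 on MOE430B, with a median of 0.31. Lung epithelium markers were higher by all 7 on MOE430A, with a median of 0.53, and 2 of the 7 passed only through the array labelled DKO. Of 8 heart muscle probe sets on MOE430A, 5 were higher and 3 lower. Myl2, a ventricular light chain of myosin, read 86011 in the array labelled DKO and 61909 in the array labelled WT. Nppa, the atrial peptide, read 23308 in the array labelled DKO and 37747 in the array labelled WT. The 1 passing heart probe set on MOE430B, of Tnnt2, read 5247 in the array labelled DKO and 2560 in the array labelled WT. Its log2 ratio was 1.04, where 1.45% of bright probe sets were at least 2-fold higher. On MOE430A Tnnt2 had 0.12 and 0.34. Endothelium markers had a median of -0.13 over 4 probe sets, and the erythroid gene Alas2 had -0.56. The part of these differences in the Malat1 values was not tested.

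The genes that flank the 4 RNAs were read next. The 3 protein-coding genes on each side of Malat1 and Neat1 in the RefSeq order had 5 passing probe sets, with log2 ratios from -0.21 to 0.33 and none past 2-fold. Frmd8, next to Neat1, read 3130 in the array labelled DKO and 2495 in the array labelled WT. Ltbp3, a latent TGF-beta binding protein, had log2 ratios of -0.16 and 0.19 by its passing probe sets. Around Gas5, Zbtb37, which overlaps its start, had 0.52 on MOE430B (965.0 in the array labelled DKO and 672.1 in the array labelled WT). This MOE430B probe set passed only through the array labelled DKO. Klhl20 had 0.76 on that design (4399 in the array labelled DKO and 2593 in the array labelled WT), above the 0.69 of Malat1 1429060_at. Cenpl, a centromere protein gene, had -0.43. None of the 13 passing probe sets of flanking genes was past 2-fold. Of all passing probe sets, 1.81% were higher and 2.03% lower by that much on MOE430A, and 9.74% and 7.97% on MOE430B. Around Snhg1, Slc3a2, an amino acid transporter subunit, had -0.07, and Wdr74, a ribosome assembly factor, 0.24.

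Other noncoding RNAs had medians slightly above 0. The SD of all passing log2 ratios (0.47 on MOE430A and 0.82 on MOE430B) describes single probe sets and is no measure of the spread of a median. The other genes of RefSeq biotype lncRNA had 31 passing probe sets on MOE430A with a median log2 ratio of 0.16, and 736 on MOE430B with a median of 0.11, while the median of all passing probe sets is 0 by the rescaling. On MOE430B, 94 of the 736 (12.8%) were higher by 2-fold or more, against 9.74% of all passing probe sets, and 71 (9.65%) were lower by as much, against 7.97%. On MOE430A the counts were 2 of 31 (6.45%), against 1.81%, and 3 of 31 (9.68%), against 2.03%. The 31 probe sets read 23 genes, with 5 of them on Meg3. Some of the MOE430B ratios are bounds with the WT signal under the floor. The class was not rerun under other processing, and the noncoding RNA lists that follow share genes with it. The highest ratio with both signals above the floor was that of Gm14198, named here after its values were seen, at 4724 in the array labelled DKO and 472.2 in the array labelled WT.

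Among a list of other well-known long noncoding RNAs, 17 of 36 had a passing probe set. On MOE430A, 10 of 14 passing probe sets were higher in the array labelled DKO, 1 of them past 2-fold, and 2 of the others were lower by more than 2-fold, both of them Xist, with a median of 0.24. The shares of all passing probe sets are 1.81% and 2.03%. Of the 14, 12 reached the filter in both arrays, and 9 of these were higher. On MOE430B, 15 of 27 were higher, with a median of 0.10. Past 2-fold, 2 were higher, against 9.74%, and 1 was lower, against 7.97%. Of the 27, 4 passed only through the array labelled DKO and 2 only through the array labelled WT. Of the 21 that reached the filter in both arrays, 11 were higher and 10 lower, with a median of 0.08. Meg3 was higher by all 5 of its MOE430A probe sets, with 1452183_a_at at 10111 in the array labelled DKO and 5076 in the array labelled WT. Of the 5, 1436713_s_at passed only through the array labelled DKO, so it had to read higher there. On MOE430B its 5 passing probe sets spanned -0.25 to a bound of 2.76 whose WT signal was under the floor. Rian, from the same imprinted region, had 0.62 and 0.33 on MOE430A and 0.29 on MOE430B. Xist, which coats the inactive X chromosome, was lower by both passing probe sets, the brighter at 2749 in the array labelled DKO and 7600 in the array labelled WT, and the sex of the embryos is not labelled. Tug1 had 0.16 and -0.60 by its MOE430A probe sets. Jpx, an activator of Xist, had 0.63 and -0.33, and Miat 0.08 and -0.86, on MOE430B.

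Other snoRNA hosts had small medians. Of 19 other noncoding snoRNA hosts, 13 had a passing probe set, 3 probe sets on MOE430A with a median of 0.05 and 13 on MOE430B with a median of 0.13. Snhg8 on MOE430A was 2.08-fold higher, at 3904 in the array labelled DKO and 1876 in the array labelled WT, the 1 of these 16 probe sets past 2-fold. Of all passing probe sets, 1.81% were that much higher on MOE430A and 9.74% on MOE430B. Snhg11 had 0.86, with 2114 in the array labelled DKO and 1163 in the array labelled WT. Snhg18 had 0.57, Snhg12 -0.24 and Snhg4 -0.47. Zfas1 read 33195 in the array labelled DKO and 29806 in the array labelled WT, a log2 ratio of 0.16. Protein-coding genes that host snoRNAs had a median of -0.02 over 26 probe sets on MOE430A, none past 2-fold. On MOE430B they had 0.06 over 9, with 1 past 2-fold in each direction, against 9.74% higher and 7.97% lower. Of the 9, 2 passed only through the array labelled DKO. The 7 that reached the filter in both arrays had a median of -0.11. Ncl, which codes for nucleolin, ranged from -0.45 to -0.11 over its passing MOE430A probe sets but had 1.21 on MOE430B. Its -0.11 came from a probe set that passed only through the array labelled WT. Its 1.21 came from a probe set that passed only through the array labelled DKO. Dkc1, the snoRNA-guided pseudouridine synthase, was lower by all 3 of its MOE430B probe sets, the lowest at 1033 in the array labelled DKO and 2074 in the array labelled WT. Hspa8, a chaperone, ranged from -0.41 to 0.40, and the ribosomal protein gene Rps3 from -0.08 to 0.52.

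**Figure D4:**
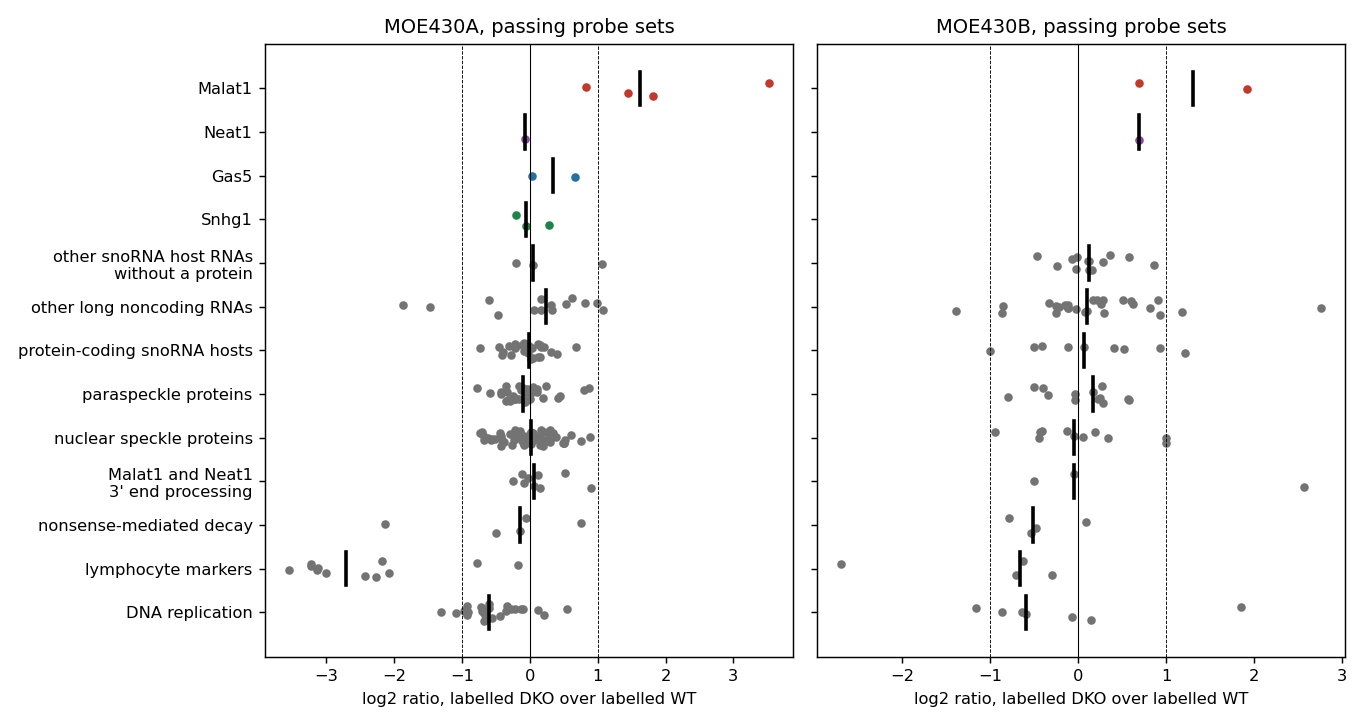
Log2 ratio (array labelled DKO over array labelled WT) of each passing probe set of the 4 genes and of gene lists around them, on MOE430A (left) and MOE430B (right), with the median of each as a black bar and dashed lines at 2-fold. Malat1 has the highest median of those drawn on each design (1.63 and 1.31), lymphocyte markers have the lowest on each (-2.71 and -0.66), and the medians of the other protein lists lie between -0.60 and 0.17.

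Probe sets for proteins of the bodies that Malat1 and Neat1 occupy lay on both sides of 0. Nuclear speckle proteins had a median of 0.02 over 61 passing probe sets on MOE430A, with 32 higher, 29 lower and none past 2-fold. On MOE430B the median was -0.04 over 11, with 1 past 2-fold higher. Of all passing probe sets, 1.81% were higher and 2.03% lower past 2-fold on MOE430A, and 9.74% and 7.97% on MOE430B. U2af2, which binds the polypyrimidine tract in splicing, had 0.76, and Clk1, a kinase of SR proteins, 0.52. The SR protein gene Srsf1 ranged from -0.71 to 0.02 over its passing probe sets. Alyref, an export adaptor, had -0.69 on MOE430A but read higher on MOE430B, with 1239 in the array labelled DKO and 619.0 in the array labelled WT. The MOE430B probe set of Alyref passed only through the array labelled DKO, so it had to read higher there. Paraspeckle proteins had a median of -0.10 over 35 probe sets on MOE430A and 0.17 over 13 on MOE430B, none past 2-fold on either. Those that reached the filter in both arrays had a median of -0.11 over 32 on MOE430A and 0.06 over 12 on MOE430B. Probe sets of a gene often differed in sign, with Sfpq, a core paraspeckle protein, from -0.34 to 0.87, Nudt21 from -0.05 to 0.57, Cpsf6 from -0.79 to 0.58 and Tardbp from -0.59 to 0.81. The 0.81 of Tardbp came from a probe set that passed only through the array labelled DKO.

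The machinery that ends or degrades these RNAs was read by few probe sets. The list of RNase P subunits with Elac2 and Mettl16 had a median of 0.07 over 9 passing probe sets on MOE430A, none past 2-fold. Of the 9, 2 passed only through the array labelled DKO. Of the 7 that reached the filter in both arrays, 3 were higher and 4 lower, with a median of -0.02. Of all passing probe sets, 1.81% were higher and 2.03% lower past 2-fold on MOE430A, and 9.74% and 7.97% on MOE430B. Rpp21 read 2018 in the array labelled DKO and 1846 in the array labelled WT. Mettl16, a methyltransferase that binds the Malat1 triple helix, had probe sets in opposite directions on MOE430B, -0.50 by the brighter and at least 5.94-fold higher by the other, which read 1659 in the array labelled DKO and 221.3 in the array labelled WT and passed only through the first. Pop5 had -0.11 and 0.16, the second by a probe set that passed only through the array labelled DKO, and Rpp14 had -0.02. Nonsense-mediated decay factors had a median of -0.14 over 5 passing probe sets on MOE430A and -0.51 over 4 on MOE430B. Smg1, the kinase of the pathway, had -0.78 and -0.54, Smg9 -0.48, Rbm8a -0.05 and Smg6 0.09. Casc3, of the exon junction complex, was the 1 past 2-fold, at 452.2 in the array labelled DKO and 1971 in the array labelled WT, and Upf1, the helicase of the pathway, had 0.76. Casc3 passed only through the array labelled WT and Upf1 only through the array labelled DKO.

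For the passing probe set of each RNA with the highest signal on each design, the probe sets with the closest pair of log2 signals on that design were listed, over 2 arrays only. Nearest to Malat1 1438403_s_at were Chia1, Gpaa1 and Sdc4, none of them close, the nearest at a distance of 0.91 log2 units. Nearest to both Malat1 1429060_at and Neat1 1442881_at were Dcdc2a, Fahd2a and Adamts9, at distances of 0.04 to 0.07 log2 units from the first and 0.02 to 0.08 from the second. Nearest to Neat1 1428083_at were Dhrs4, Sgcb and Ahctf1, each within 0.02. Nearest to Gas5 1449410_a_at were Rhob, Capzb and Gdi2, at 0.01 to 0.04. Nearest to Snhg1 1433674_a_at were Vasp, Eif2s2 and Mrpl14, at 0.02 to 0.03. With a pair of arrays this likeness means equal signals and no more.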

How the data were processed

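The authors deposited 1 signal intensity per probe set and array, on a linear scale, made with MAS5, per the submitters' processing notes. The sources used here give no version, settings or detection calls. The 2% trimmed mean was 1500 on each of the 4 arrays, so each had been scaled alone. The designs are not on 1 scale and ratios were formed only within a design. Scaling of this kind assumes equal total signal in both genotypes, and dim MAS5 signals are noisy.

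From these values, the 64 control probe sets of each design were removed, the array labelled DKO was divided by 1.004 (MOE430A) or 1.008 (MOE430B), the filter of the report was applied (12203 and 12891 probe sets passed), and signals below the 25th percentile (284.5 and 279.1) were set to it. A ratio with 1 signal below this floor is a bound. Probe sets were named through the platform annotation, which gave 20393 and 14674 of them a single gene, and RefSeq GRCm38.p6 gave biotypes, gene order and promoter sequence. The arrays' annotation names no build, so probe sets were not placed on the genome. Coordinates are given only for the RefSeq promoter windows, on GRCm38.p6. The 4 genes, the lists and the naming rule were chosen with earlier results of these data known. By that rule every probe set of the 4 genes is given, with up to 2 highest and 2 lowest bright genes per list, flanking genes and the 3 nearest patterns on each design. Values beyond it were chosen after they were seen. Examples are those of Casc3, Upf1, Snhg11, Mylpf, the skeletal muscle markers below the filter and further probe sets of named genes. With 1 array per group no test was made. The SD of 0.24 leaves out an offset, since shared probe sets had ratios a mean 0.22 lower on MOE430B (-0.22). The steps were tested on simulated arrays. Python 3.11.15 with numpy 2.4.6, pandas 2.3.3, statsmodels 0.14.6 and matplotlib 3.10.9 was used.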

Additional observations from a re-analysis of the deposited data

Results flagged for a closer look

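Probe sets for 18S ribosomal RNA, controls that the comparisons leave out, read higher in the arrays labelled DKO than in those labelled WT on both designs, a median 3.91-fold on MOE430A and 3.13-fold on MOE430B. Their 3' to 5' signal ratio was 0.931 in the array labelled DKO and 0.718 in the array labelled WT on MOE430A.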

How the results depend on the processing

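No paired analysis was possible because there is 1 array per genotype and design. A value is called moved here when it changed by more than the SD of 0.24 from shared probe sets, or a count by more than 1.5 times. That SD does not measure the spread between embryos. No log2 ratio past 2-fold changed sign under an alternative. Of 100 values of 13 log2 ratios, 84 did not move, and of 179 values of 23 list medians, 171 did not. With the floor at the median, Malat1 1452378_at was 0.27, 1418188_a_at 0.67 and 1436202_at 1.26, since the floor replaces the lower signal. Rescaling on spike-ins, added after the data were seen, gave 2.97, 0.89, 0.27 and 1.26 for Malat1 1438403_s_at, 1418189_s_at, 1452378_at and 1418188_a_at, 0.31 and 1.54 for 1429060_at and 1436202_at, -0.62 and 0.31 for Neat1 on MOE430A and MOE430B, -0.53 and 0.11 for Gas5 1449410_a_at and 1419291_x_at, and -0.27, -0.62 and -0.75 for Snhg1 1433674_a_at, 1439399_a_at and 1433675_at.

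On MOE430A the counts at least 2-fold higher and lower, 221 and 248, became 71 and 105 with the floor at the median, 387 and 380 with no filter, 53 and 82 with a stricter filter (75th percentile) and 26 and 30 among bright probe sets, a restriction added after the data were seen. On MOE430B the counts of 1255 and 1027 became 390 and 324 with the floor at the median, 295 and 218 with the stricter filter and 79 and 65 among bright probe sets. The higher count was 615 with a loess curve removed and the lower count 1565 with no filter. These counts move because dim probe sets enter, leave or are set to the floor, except under loess, where the cause was not tested. The lymphocyte median on MOE430A was -3.18 and -1.69 with the floor at the 10th percentile and the median, -2.11 with no filter and -3.13 with the stricter filter, which gave 0.87 for lung mesenchyme markers. On MOE430B, protein-coding snoRNA hosts had 0.41 with no filter and -0.36 with the stricter filter, and nonsense-mediated decay factors 0.00 with no filter. Signal over background limits the 5 single-gene probe sets that did not pass, for which no ratio is given.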
